A study of Mus musculus with 9 samples.

Results

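The genes of interleukin-6 (IL-6) family signalling were followed in whole mouse aorta with and without Apoe. Apoe encodes a protein component of lipoproteins, and its loss raises plasma cholesterol. The IL-6 family genes are 10 of the 33293 genes of the expression table and were taken by name. The set comprised the cytokine genes Il6 and Lif, the receptor genes Il6ra, Il11ra1, Lifr, Osmr and Il6st, the transcription factor genes Stat3 and Cebpb, and the feedback inhibitor gene Socs3. RNA sequencing covered 9 libraries, 5 from C57BL/6J animals (WT 1 to 5) and 4 from Apoe-knockout animals (Apoe_KO 1 to 4). Every animal was male, 7 to 8 weeks old and fed normal chow. The labels do not state which part of Apoe is removed, whether the knockout is on the same background strain, or whether each library is a separate animal. The p-values therefore measure the spread between these libraries, which may be technical.

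Cytokines of this family bind a ligand-specific receptor chain, and the complex then recruits gp130, the shared signalling chain encoded by Il6st. Leukaemia inhibitory factor and oncostatin M instead use heterodimers of gp130 with the chains encoded by Lifr or Osmr. Janus kinases on these chains phosphorylate STAT3, which enters the nucleus and switches on targets that include Socs3, whose product binds gp130 and its kinases and stops the signal. C/EBP-beta and C/EBP-delta, encoded by Cebpb and Cebpd, carry part of the acute phase response. In the vessel wall the cytokine Il6 is known to be made by smooth muscle cells, fibroblasts, endothelial cells and macrophages.

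The windows around the start sites of Il6 and Socs3 are shown because these genes varied most within the knockout group. The windows run 5′ to 3′ on the gene's strand, from 250 bases before to 50 after the start given by RefSeq on GRCm38.p6. The Il6 window is chr5:30012864-30013163 on the plus strand and the Socs3 window is chr11:117969317-117969616 on the minus strand. Capitals mark matches to any of 3 motifs, searched on both strands. The motifs were TTCNNNGAA for STAT factors, TTGCNNAA for C/EBP factors and, for NF-kappaB, GGGA and TTTCC with 1 base of any kind between them.
Il6: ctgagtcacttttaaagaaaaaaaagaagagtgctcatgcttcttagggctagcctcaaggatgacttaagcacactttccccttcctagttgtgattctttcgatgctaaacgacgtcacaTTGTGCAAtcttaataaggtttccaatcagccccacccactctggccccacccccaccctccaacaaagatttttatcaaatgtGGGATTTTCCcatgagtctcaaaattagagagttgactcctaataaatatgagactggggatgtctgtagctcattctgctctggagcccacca
Socs3: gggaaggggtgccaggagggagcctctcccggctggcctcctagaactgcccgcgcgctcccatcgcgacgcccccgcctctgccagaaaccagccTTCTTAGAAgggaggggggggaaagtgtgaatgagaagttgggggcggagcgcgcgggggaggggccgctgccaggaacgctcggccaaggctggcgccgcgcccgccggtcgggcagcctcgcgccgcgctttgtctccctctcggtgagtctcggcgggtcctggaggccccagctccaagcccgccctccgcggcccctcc
The Il6 window held a C/EBP match on the opposite strand, 128 to 121 bases upstream of the start, and an NF-kappaB match 44 to 35 bases upstream. The Socs3 window held a STAT match 154 to 146 bases upstream of the RefSeq start. The GENCODE annotation used for expression places Socs3 at 117966079 to 117970047, so this whole window lies within the gene by that annotation. All 10 genes had a RefSeq window, 12 windows in all since Lifr and Il11ra1 have more than 1 start, and no window of the other 8 genes held these letters. Among 32851 mouse windows of the same length, 8.3% held the STAT letters, 10.8% the C/EBP letters and 0.411% the NF-kappaB letters. A match describes the sequence and is not a measured site.

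Expression is given in FPKM, fragments scaled by exon length and sequencing depth, a unit that allows levels of different genes to be compared. The recovered depths ran from 17.0 to 19.8 M reads, and for a gene with 2 kb of exon each read added 0.0253 to 0.0294 FPKM. Apoe lay at 513 to 643 FPKM in WT and at 5.64 to 6.55 FPKM in Apoe_KO, which matched the labels in all 9 libraries. The 7 smooth muscle markers, among them Myh11 and Acta2, summed to 4750 to 5650 FPKM in WT and 4861 to 6159 FPKM in Apoe_KO. WT 2 and Apoe_KO 4 stood apart by their B and plasma cell markers, which summed to 2437 and 791 FPKM against 25.1 to 63.5 FPKM in the other 7 libraries. Their T and natural killer (NK) cell markers summed to 46.0 and 33.9 FPKM against 3.30 to 7.78 FPKM in the others. Their neutrophil markers, at 17.3 and 12.4 FPKM against 2.16 to 7.21 FPKM, were the highest as well. Results that follow are therefore also given without these libraries where that changed a call. Genes at 1 FPKM or more in at least 4 libraries (13383 genes) were tested with limma on log2(FPKM + 1), and a gene was called at a Benjamini-Hochberg adjusted p under 0.05. Of the 10 genes 8 passed this filter, and Il6 and Lif did not.

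In WT aorta the level of the shared receptor chain far exceeded that of the ligands. Il6st was the highest of the 10 genes at 64.7 ± 7.04 FPKM (SD, n = 5), and the WT ranges of Il6st and the next gene, Il11ra1, did not overlap. Below it came Il11ra1 at 36 ± 2.65 FPKM, Cebpb at 25.9 ± 5.43 FPKM, Stat3 at 17.2 ± 1.06 FPKM and Lifr at 12.1 ± 1.18 FPKM (SD, n = 5 each). Socs3 at 5.77 ± 3.62 FPKM, Osmr at 4.85 ± 0.345 FPKM and Il6ra at 4.69 ± 0.781 FPKM followed (SD, n = 5 each), with ranges that overlapped one another. Lif at 0.849 ± 0.185 FPKM and Il6 at 0.320 ± 0.301 FPKM (SD, n = 5 each) were the lowest. The ranges of Il11ra1 and Cebpb overlapped as well, and so did those of Lifr and Socs3 and of Lif and Il6. In Apoe_KO the order of the means changed at 2 places: Socs3 took the fourth rank above Stat3 and Lifr, and Il6 passed Lif. The Apoe_KO ranges of these genes overlapped, and the new order did not hold in each library. In Apoe_KO 1 Socs3 (2.75 FPKM) lay below Stat3 (20.7 FPKM) and Lifr (13.4 FPKM), and Il6 (0.0422 FPKM) below Lif (0.530 FPKM). In Apoe_KO 3 Socs3 (15.9 FPKM) lay below Stat3 (22.5 FPKM).

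**Figure D1:**
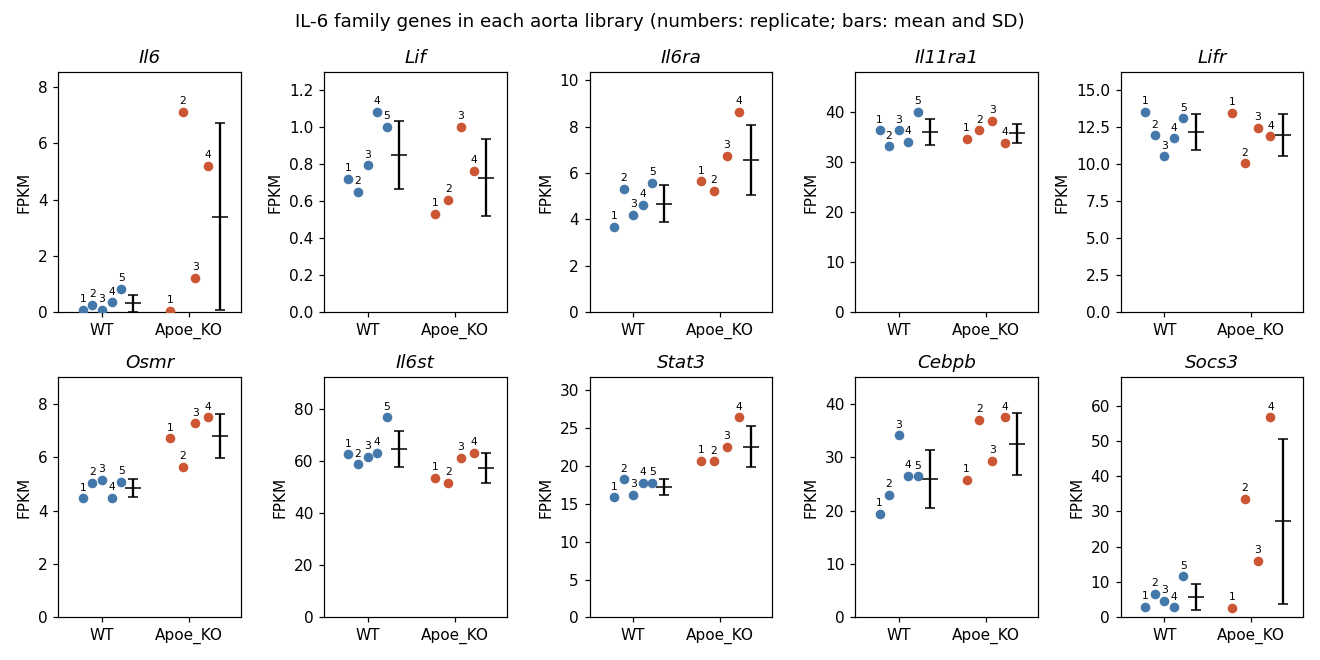
FPKM of the 10 IL-6 family genes in each aorta library, on linear axes from 0, with the replicate number beside each point and the group mean and SD as bars (WT, n = 5; Apoe_KO, n = 4). Osmr and Stat3 have no overlap between groups, and Il6 and Socs3 are high in Apoe_KO 2, 3 and 4 and low in Apoe_KO 1.

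Among the ligands, Il6 varied most, and neither Il6 nor Lif differed between genotypes past the threshold. Il6, the founding cytokine of the family (ENSMUSG00000025746; GRCm38 chromosome 5, 30013114 to 30019981), was at 0.0833, 0.266, 0.0874, 0.345 and 0.819 FPKM in WT 1 to 5. In Apoe_KO 1 to 4 it was at 0.0422, 7.12, 1.22 and 5.21 FPKM. Apoe_KO 2, 3 and 4 lay above every WT library, while Apoe_KO 1 lay below every WT library, so the groups overlapped. These levels rested on 4 to 37 reads in WT and on 2, 321, 56 and 232 reads in Apoe_KO 1 to 4. The means were 0.320 ± 0.301 FPKM in WT (SD, n = 5) and 3.40 ± 3.32 FPKM in Apoe_KO (SD, n = 4), a ratio of 10.6. The difference in mean log2(FPKM + 1) was 1.34, with a two-sided exact permutation p of 0.0714 over all splits, where 0.00794 is the smallest possible. The limma fit with no filter gave an interval of 0.12 to 2.56 for this difference and an adjusted p of 0.311, in a fit that called 1.46% of 30432 genes. On the FPKM scale the difference was 3.08 with an exact permutation p of 0.0476. Without Apoe_KO 1 the log2 difference was 1.90 and the exact permutation p was 0.0179, the smallest that 56 splits can give, while the adjusted p of the limma fit with no filter was 0.0817. Without Apoe_KO 2 the difference was 0.91, and without WT 2 and Apoe_KO 4 it was 1.03 with an exact permutation p of 0.286. In a bulk tissue a change in the number of cells that express a gene and a change in RNA per cell cannot be told apart.

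Lif, which encodes leukaemia inhibitory factor (ENSMUSG00000034394; chromosome 11, 4257557 to 4272514), was at 0.721, 0.649, 0.793, 1.08 and 1.00 FPKM in WT 1 to 5. In Apoe_KO 1 to 4 it was at 0.530, 0.607, 1.00 and 0.764 FPKM, within or just below the WT range. The log2 difference was -0.10 with an exact permutation p of 0.325, and the limma fit with no filter gave an interval of -0.36 to 0.16. Among the other ligand genes, Ctf1 and Clcf1 were tested and not called. Ctf1, the gene of cardiotrophin-1, averaged 1.99 ± 0.322 FPKM in the WT libraries (SD, n = 5) against 2.24 ± 0.356 FPKM in Apoe_KO (SD, n = 4), with a limma adjusted p of 0.573. Clcf1, which encodes a cytokine of the family, averaged 2.002 ± 1.53 FPKM in WT against 1.88 ± 1.27 FPKM in Apoe_KO, with a limma adjusted p of 0.967. Its highest values, 4.66 and 3.77 FPKM, were in WT 2 and Apoe_KO 4. These libraries had the most B and plasma cell, T and NK cell and neutrophil marker transcripts, whose part in this was not tested. Exons of Ctf1 overlap those of Ctf2 on the other strand, and no source used here says whether strand was counted. Exons of Clcf1 overlap those of AC109138.7 on the same strand, and those of Cntf, a further ligand gene, overlap Zfp91 in the same way. Counting by strand would not separate these.

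The other ligands under the filter were at low levels too. Osm, the gene of oncostatin M, was at 0.0223, 0.259, 0.280, 0 and 0.355 FPKM in WT 1 to 5 and at 0.271, 0.403, 0.514 and 1.03 FPKM in Apoe_KO 1 to 4, from at most 43 reads. Apoe_KO 2, 3 and 4 lay above the WT range and Apoe_KO 1 within it. Il11 was at 0 to 0.343 FPKM, Cntf at 0 to 0.551 FPKM, Il27 at 0.105 to 0.602 FPKM and Ebi3 at 0.476 to 1.11 FPKM over the 9 libraries, and Il31 was listed at 0 in each.

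Of the receptor genes, Osmr rose in Apoe_KO, and Il6ra, Il11ra1, Lifr and Il6st did not pass the test. Osmr, the oncostatin M receptor chain (ENSMUSG00000022146; chromosome 15, 6813577 to 6874969), was at 4.47, 5.05, 5.17, 4.48 and 5.08 FPKM in WT 1 to 5. In Apoe_KO 1 to 4 it was at 6.72, 5.65, 7.28 and 7.51 FPKM. All 4 Apoe_KO libraries lay above all 5 WT libraries. The means were 4.85 ± 0.345 FPKM (SD, n = 5) and 6.79 ± 0.830 FPKM (SD, n = 4), a ratio of 1.40, with a log2 fold change of 0.41 ± 0.087 (SE) and a limma adjusted p of 0.0233. Over all 13383 tested genes 7.35% were called, 3.43% higher and 3.92% lower, and 4.9% had every Apoe_KO library above every WT library. The call was lost when WT 1, WT 4, Apoe_KO 1, Apoe_KO 3 or Apoe_KO 4 was left out, with limma adjusted p-values of 0.0535, 0.0626, 0.0539, 0.0802 and 0.0552, and without WT 2 and Apoe_KO 4 together, with 0.0813. The fold change stayed between 0.36 and 0.49 over 18 alternatives, of which 10 kept the call.

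Il6ra, the ligand-binding chain for IL-6 (ENSMUSG00000027947; chromosome 3, 89864059 to 89913196), was at 3.69, 5.32, 4.21, 4.63 and 5.59 FPKM in WT 1 to 5 and at 5.65, 5.22, 6.75 and 8.64 FPKM in Apoe_KO 1 to 4. Apoe_KO 1, 3 and 4 lay above the WT range, and Apoe_KO 2 within it. The log2 fold change was 0.40 ± 0.144 (SE; 95% interval 0.081 to 0.72) with a limma adjusted p of 0.12, so Il6ra was not called. Apoe_KO 4, the highest for Il6ra, also had the highest sum of 10 macrophage markers, 965 FPKM, against 371 to 625 FPKM in WT and 469 to 545 FPKM in the other Apoe_KO libraries. Of these 10 markers 2, Cd14 and Fcgr3, were called higher, against 3.43% of all tested genes. All 10 were above 0 in every library, and their part in the Il6ra level was not tested.

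Il6st, which encodes gp130 (ENSMUSG00000021756; chromosome 13, 112464070 to 112510086), was at 62.7, 58.9, 61.8, 63.3 and 77.0 FPKM in WT 1 to 5 and at 53.7, 51.7, 61.4 and 63.3 FPKM in Apoe_KO 1 to 4. Apoe_KO 1 and 2 lay below the WT range and the others inside it. The log2 fold change was -0.17 (interval -0.38 to 0.044) with a limma adjusted p of 0.31. Lifr, the chain for leukaemia inhibitory factor (ENSMUSG00000054263; chromosome 15, 7090614 to 7197489), was at 13.5, 11.9, 10.5, 11.7 and 13.1 FPKM in WT and 13.4, 10.03, 12.4 and 11.9 FPKM in Apoe_KO. Its means were 12.1 ± 1.18 FPKM (SD, n = 5) and 11.9 ± 1.43 FPKM (SD, n = 4), and the interval of the log2 fold change was -0.24 to 0.19. Il11ra1, the IL-11 binding chain (ENSMUSG00000073889; chromosome 4, 41699989 to 41769474), was at 36.4, 33.2, 36.4, 34.1 and 40.1 FPKM in WT and 34.7, 36.4, 38.3 and 33.9 FPKM in Apoe_KO. The groups overlapped throughout, with an interval of -0.16 to 0.15. Il11ra1 has near-identical copies in the mouse genome, and its reads may have been shared with them. Cntfr and Il27ra, further receptor genes, were tested and not called, and Il31ra stayed between 0.415 and 1.33 FPKM, under the filter.

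Stat3 rose in Apoe_KO, and Cebpb did not pass the test. Stat3 (ENSMUSG00000004040; chromosome 11, 100885098 to 100939540) was at 15.9, 18.2, 16.2, 17.7 and 17.8 FPKM in WT 1 to 5 and at 20.7, 20.6, 22.5 and 26.4 FPKM in Apoe_KO 1 to 4. No Apoe_KO library lay within the WT range. The means were 17.2 ± 1.06 FPKM (SD, n = 5) and 22.6 ± 2.73 FPKM (SD, n = 4), a ratio of 1.31, with a log2 fold change of 0.37 ± 0.083 (SE) and a limma adjusted p of 0.0276. Without WT 1, WT 3, WT 4, WT 5 or Apoe_KO 3 the limma adjusted p was 0.062, 0.0557, 0.0606, 0.0517 and 0.0813, and without WT 2 and Apoe_KO 4 together it was 0.0595. The fold change stayed between 0.29 and 0.44 over 19 alternatives, of which 11 kept the call. Exons of Stat3 overlap those of Stat5a on the other strand at their ends.

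Cebpb, the C/EBP-beta gene (ENSMUSG00000056501; chromosome 2, 167688915 to 167690418), was at 19.4, 23.0, 34.1, 26.5 and 26.4 FPKM in WT 1 to 5 and at 25.8, 37.0, 29.4 and 37.5 FPKM in Apoe_KO 1 to 4. Apoe_KO 2 and 4 lay above the WT range, and WT 3 lay above Apoe_KO 1 and 3. The log2 fold change was 0.32 ± 0.161 (SE; interval -0.039 to 0.68) with a limma adjusted p of 0.255. Exons of Cebpb, Il6ra, Il11ra1 and Cebpd overlap those of Tmem189, Gm42809, Ccl27a and Spidr on the other strand, so their values carry the same uncertainty.

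Socs3 had the largest fold change of the 8 tested genes and was not called. Its level differed widely between the Apoe_KO libraries. Socs3 (ENSMUSG00000053113; chromosome 11, 117966079 to 117970047) was at 2.96, 6.73, 4.66, 2.88 and 11.6 FPKM in WT 1 to 5 and at 2.75, 33.7, 15.9 and 56.7 FPKM in Apoe_KO 1 to 4. Apoe_KO 2, 3 and 4 exceeded every WT library, while Apoe_KO 1 was the lowest of all 9. These levels rested on 155 to 3010 reads per library. The means were 5.77 ± 3.62 FPKM (SD, n = 5) and 27.3 ± 23.4 FPKM (SD, n = 4), a ratio of 4.73. The log2 fold change was 1.63 ± 0.72 (SE; interval 0.0063 to 3.25) with a limma adjusted p of 0.202. Without Apoe_KO 1 it was 2.41 with a limma adjusted p of 0.0313, past the threshold, and without Apoe_KO 4 it was 1.09 with 0.377.

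**Figure D2:**
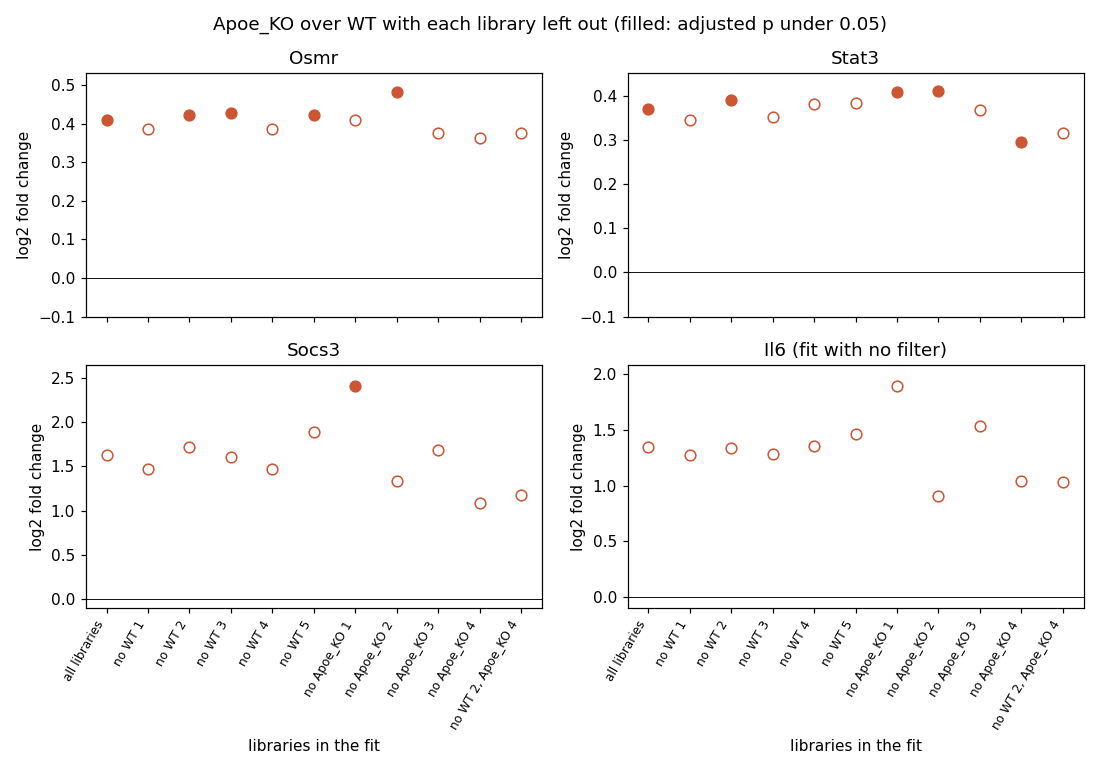
Log2 fold change of Apoe_KO over WT for Osmr, Stat3, Socs3 and Il6 with all libraries and with each library left out in turn (linear axes; filled points have a limma adjusted p under 0.05; Il6 from the fit with no filter). Osmr and Stat3 stay above 0 and pass the threshold in some fits and not in others, and Socs3 ranges from 1.09 to 2.41 and is called only without Apoe_KO 1.

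The spread among the Apoe_KO libraries was wide for Il6 and Socs3 and narrow for the other 8 genes. The highest Apoe_KO library exceeded the lowest by a factor of 169 for Il6 and 20.7 for Socs3, and by 1.13 for Il11ra1 to 1.89 for Lif in the other 8. Osmr and Stat3 in Apoe_KO 1, at 6.72 and 20.7 FPKM, lay with the other Apoe_KO libraries and above WT. In WT, both Il6 and Socs3 were highest in WT 5, at 0.819 and 11.6 FPKM. The 11 immediate early markers, genes that respond within minutes to handling, summed to 342 FPKM in Apoe_KO 1 against 553, 526 and 580 FPKM in Apoe_KO 2 to 4. In WT 1 to 5 they summed to 236, 385, 566, 478 and 828 FPKM, highest in WT 5. Of the 11, 1 (Ier3) was called higher, against 3.43% of all tested genes. All 11 were above 0 in every library, and their part in the Il6 and Socs3 levels was not tested.

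Genes with the pattern most like that of Il6 were sought among all tested genes by the mean absolute difference of z-scores over the 9 libraries, where 0 is an identical pattern. The 5 nearest were Has1 (0.117), a hyaluronan synthase, Ptx3 (0.196), a secreted pentraxin, Tnfaip6 (0.252), a hyaluronan-binding protein, Use1 (0.266) and Colca2 (0.270). Has1 was at 0.581, 0.985, 0.559, 0.700 and 1.72 FPKM in WT 1 to 5 and at 0.711, 8.76, 1.93 and 5.13 FPKM in Apoe_KO 1 to 4. Ptx3 was at 0.218 to 1.04 FPKM in WT and at 0.458, 5.44, 1.90 and 7.60 FPKM in Apoe_KO 1 to 4. Both had Apoe_KO 1 within the WT range and the other 3 Apoe_KO libraries above it, and neither was called, with limma adjusted p-values of 0.152 and 0.0926. Tnfaip6 was at 2.22 to 5.31 FPKM in WT and at 4.34, 14.0, 6.05 and 11.7 FPKM in Apoe_KO 1 to 4, with a limma adjusted p of 0.0746. For Socs3 the 5 nearest were Use1 (0.162), Gm4705 (0.235), Bhlhe40 (0.241), Anks1 (0.253) and Ptx3 (0.255). Z-scores leave out the size of a difference. The log2 fold changes of these 5 were 0.17, 0.43, 0.27, 0.12 and 1.44, against 1.63 for Socs3. Use1, near both genes in pattern, was at 21.8 to 25.3 FPKM in WT and at 21.6, 30.2, 24.8 and 30.7 FPKM in Apoe_KO 1 to 4. Colca2 had a log2 fold change of 0.28. Socs3 itself ranked 14 in likeness to Il6 (0.313). The genes were picked for this likeness, so their values are a description.

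**Figure D3:**
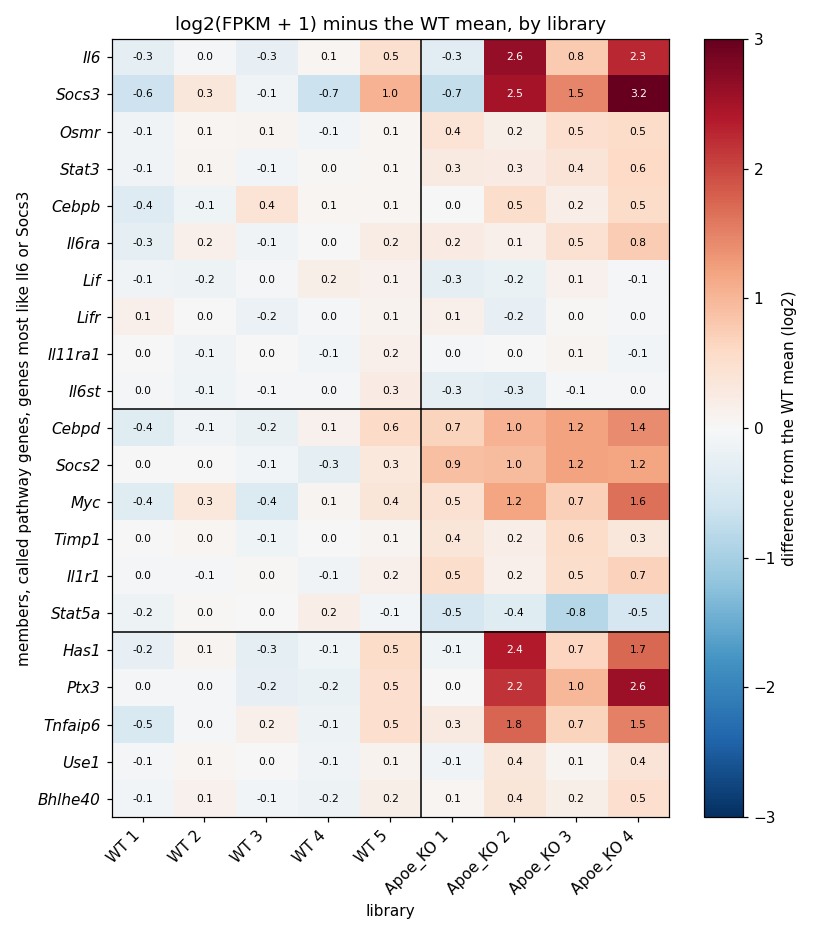
Difference of log2(FPKM + 1) from the WT mean in each library (columns) for the 10 IL-6 family genes, called pathway genes named in the text and genes most like Il6 or Socs3 in pattern (rows), with red above and blue below the WT mean. Il6, Socs3, Has1 and Ptx3 are highest in Apoe_KO 2, 3 and 4 and near or below the WT mean in Apoe_KO 1, whereas Cebpd, Socs2, Osmr, Stat3 and Il1r1 are above the WT mean in all 4 Apoe_KO libraries.

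Around these 10 genes, 67 further genes of the pathway were read from lists of ligands, receptors, kinases and adaptors, transcription factors, negative regulators, shedding proteases, regulators of Il6 mRNA and STAT3 or acute phase targets. Of the 77 genes in all, 65 were tested, 7 were called higher and 2 lower, against 3.43% higher and 3.92% lower over all tested genes. The share called lower was near that background. The count called higher was 1 without Apoe_KO 3, 2 without WT 4, 3 without WT 1 and 4 without Apoe_KO 4, and the count called lower was 1 without Apoe_KO 3. Their median log2 fold change was 0.10 against -0.07 over all tested genes. Among the 10 genes themselves 2 of 8 tested were called higher, against 3.43% of all tested genes, and none lower, with a median of 0.35, and voom on recovered reads also called 2. At an unadjusted p under 0.05, 4 were higher and none lower, against 8.59% and 16% of all tested genes. The genes and lists were chosen with earlier results of these data known, so these counts are a description and not a test.

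Transcription factor genes moved in both directions: Cebpd rose beside Stat3, and Stat5a fell. Cebpd, the gene of C/EBP-delta (chromosome 16, 15887286 to 15891031), was at 9.02, 10.96, 9.92, 12.9 and 18.0 FPKM in WT 1 to 5 and at 19.4, 25.5, 28.6 and 33.0 FPKM in Apoe_KO 1 to 4. Every Apoe_KO library exceeded every WT library, and the log2 fold change was 1.08 ± 0.20 (SE) with a limma adjusted p of 0.0145. The call was lost without Apoe_KO 3, with 0.0525, and without WT 2 and Apoe_KO 4 together, with 0.0718. Stat5a, a factor of cytokine and growth hormone signalling, fell from 6.07 ± 0.651 to 3.83 ± 0.654 FPKM (SD, n = 5 and 4), with a limma adjusted p of 0.0167 and 0.0668 without WT 2 and Apoe_KO 4. All 4 Apoe_KO libraries lay below all 5 WT libraries for Stat5a, as in 7.48% of all tested genes. Stat5a shares exonic bases with Stat3 on the other strand, and the values of the 2 genes moved in opposite directions. The shared bases can lie only from 100885098, where Stat3 begins, to 100885169, where Stat5a ends. Stat5a has 7133 exonic bases and Stat3 9527.

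Of the negative regulators, Socs2 rose, and the other 7 tested, Socs3 included, were not called. Socs2, an inhibitor best known in growth hormone signalling (chromosome 10, 95385362 to 95417180), was at 2.93, 2.86, 2.68, 2.23 and 3.83 FPKM in WT 1 to 5 and at 6.24, 6.52, 7.89 and 7.82 FPKM in Apoe_KO 1 to 4. The groups were well apart, with a log2 fold change of 1.06 ± 0.119 (SE) and a limma adjusted p of 0.0015. It was called under all 18 alternatives tried for it, with a highest adjusted p of 0.0238. Socs1, which acts mainly on interferon signals, was at 0.146 to 0.809 FPKM and under the filter.

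The list of 30 STAT3 and acute phase targets, which also holds Socs3, Cebpb, Cebpd and Osmr, had 28 tested genes, with 5 called higher and none lower. The log2 fold change was above 0 for 19 of the 28 and below 0 for 9, with a median of 0.27. Over all 13383 tested genes 4828 were above 0 and 8555 below. At an unadjusted p under 0.05 there were 10 higher and none lower in the list. Over all tested genes 3.43% were called higher and 3.92% lower, and at an unadjusted p under 0.05, 8.59% were higher and 16% lower. This list too was chosen with earlier results of these data known, so its counts are a description. Timp1, an inhibitor of matrix metalloproteinases, rose from 15.2 ± 0.844 to 19.9 ± 2.13 FPKM (SD, n = 5 and 4), with a log2 fold change of 0.37 ± 0.077 (SE) and a limma adjusted p of 0.0226. Without WT 4 or Apoe_KO 3 its adjusted p was 0.059 and 0.0599, without Apoe_KO 1 it reached 0.05, and without WT 2 and Apoe_KO 4 it was 0.0713. Il1r1, the signalling receptor for interleukin-1, rose from 8.93 ± 0.720 to 12.9 ± 2.06 FPKM (SD, n = 5 and 4), with a log2 fold change of 0.47 ± 0.105 (SE) and a limma adjusted p of 0.0266. It was called in 10 of 19 alternatives, and leaving out WT 1, WT 2, WT 4, Apoe_KO 1, Apoe_KO 3 or Apoe_KO 4 gave adjusted p-values of 0.0581, 0.0599, 0.0689, 0.0653, 0.0845 and 0.0594, and without WT 2 and Apoe_KO 4 together it was 0.103. Myc, a growth regulator named here after its values were seen, completes the 5 called genes with 3.57 ± 1.14 FPKM in WT, 8.38 ± 3.48 FPKM in Apoe_KO and a limma adjusted p of 0.0476. It was called in 5 of 18 alternatives, and of the 9 fits that left out a library only that without Apoe_KO 1 kept it, with adjusted p-values of 0.0378 to 0.098. Without WT 2 and Apoe_KO 4 together its adjusted p was 0.0936.

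**Figure D4:**
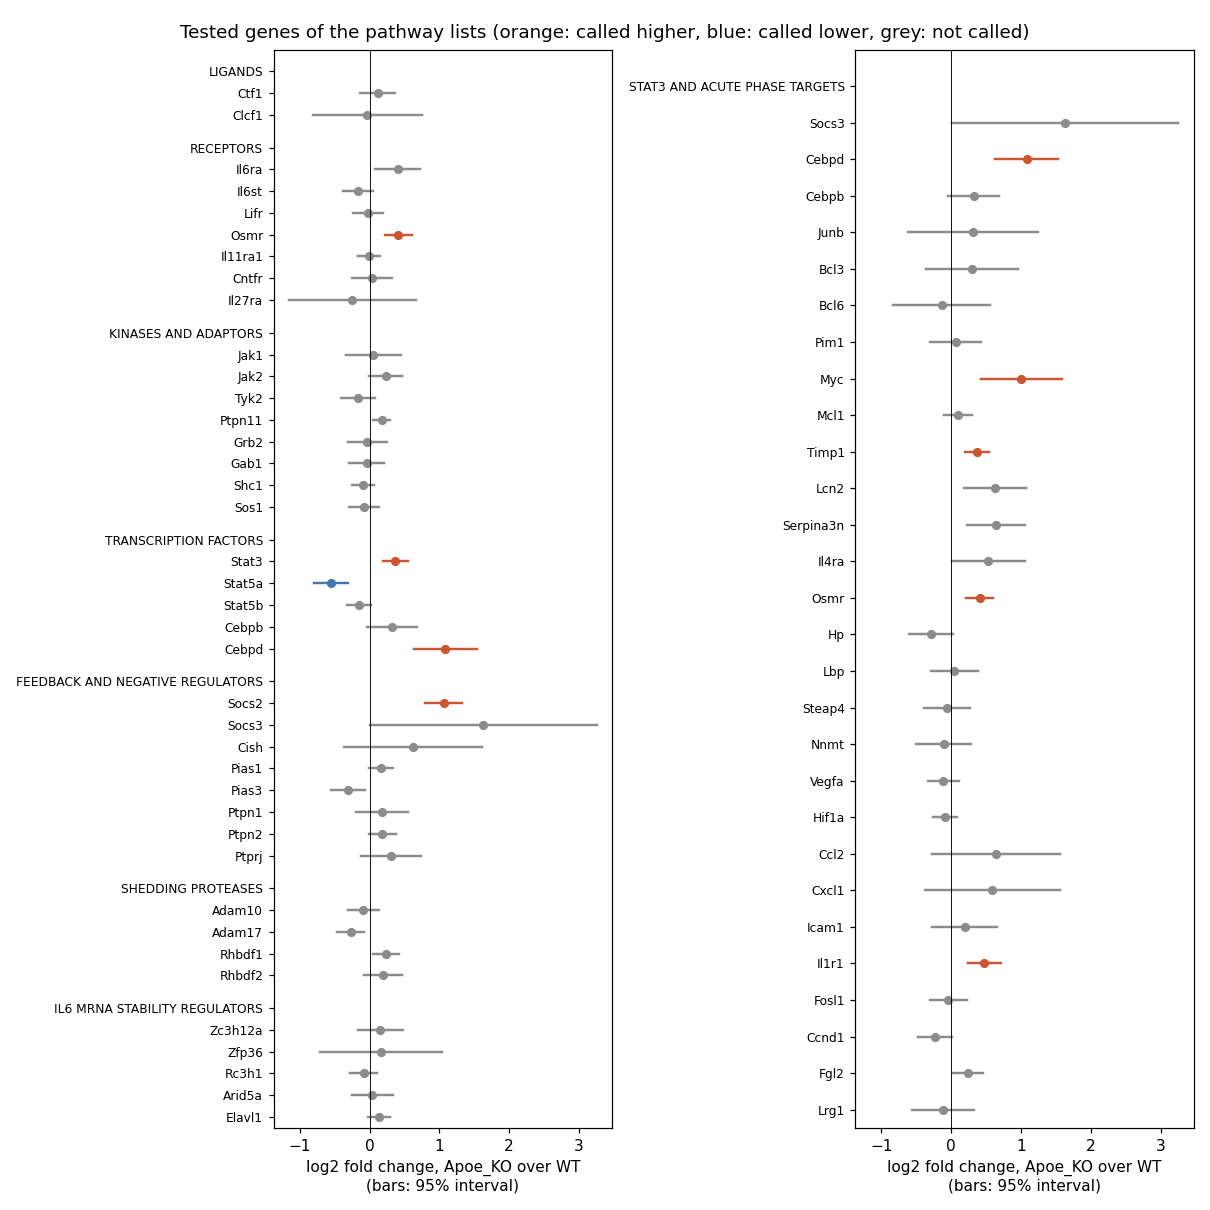
Log2 fold change of Apoe_KO over WT with its 95% interval for the tested genes of the pathway lists reported here, grouped by role (orange, called higher; blue, called lower; grey, not called; limma adjusted p under 0.05). Calls lie among the transcription factors, with Osmr, Socs2 and some targets, and no kinase, protease or mRNA regulator is called.

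None of the 8 kinases and adaptors, 4 shedding proteases or 5 regulators of Il6 mRNA was called by limma or by voom. At an unadjusted p under 0.05, Ptpn11 and Rhbdf1 were higher and Adam17 lower, and no regulator of Il6 mRNA passed. Ptpn11, the SHP2 phosphatase gene, had a log2 fold change of 0.18 and Jak2, a receptor-bound kinase, of 0.23, with limma adjusted p-values of 0.0775 and 0.21. Adam17, the protease that sheds the IL-6 receptor, had -0.27 with an adjusted p of 0.0926, and Rhbdf1, a partner needed for its maturation, had 0.23 with 0.115. Elavl1 and Zc3h12a, which encode proteins that stabilise and cut cytokine mRNAs, had 0.13 and 0.16 with adjusted p-values of 0.289 and 0.548. Ptpn11 and Adam17 passed the threshold with library weights, at 0.0407 and 0.0278, and Rhbdf1 with median centring, at 0.0497.

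Other transcripts separated the genotypes as Osmr, Stat3, Cebpd and Socs2 did. The 7 heat shock markers summed to 458 to 594 FPKM in WT and to 1228 to 1702 FPKM in Apoe_KO. Of the 7, 6 were called higher, against 3.43% of all tested genes, and all were above 0 in every library. Apoe_KO 1, which was low for Il6 and Socs3, had a heat shock sum of 1517 FPKM, inside the range of the other Apoe_KO libraries. The part of the heat shock transcripts in these results was not tested. Sums of macrophage, fibroblast, endothelial and white adipocyte markers overlapped between genotypes. Gene by gene, all 10 macrophage markers had a log2 fold change above 0, as did 4828 of all 13383 tested genes. Their median was 0.26 against -0.07 over all tested genes. At an unadjusted p under 0.05, 5 were higher, against 8.59% of all tested genes. Lyz2 alone made 574 of the 965 FPKM of the macrophage sum in Apoe_KO 4. Fibroblast markers ranged from 1409 to 1848 FPKM in WT and 1305 to 1760 FPKM in Apoe_KO, with none of 8 called. Endothelial markers ranged from 185 to 321 and 174 to 302 FPKM, with 1 of 6, Kdr, called lower, against 3.92% of all tested genes. Of these 6, 5 had a log2 fold change below 0, with a median of -0.38. At an unadjusted p under 0.05, 2 were lower, against 16% of all tested genes. White adipocyte markers ranged from 3734 to 5832 FPKM in WT and 2401 to 4619 FPKM in Apoe_KO. Of these, 2 of 7, Lep and Plin1, were called lower, against the same 3.92%. All 7 had a log2 fold change below 0, as did 8555 of all 13383 tested genes. Their median was -0.50, and 4 were lower at an unadjusted p under 0.05, against 16% of all tested genes. These marker genes, Cd14 and Fcgr3 included, are named after their values were seen. Neutrophil markers were at 4.09 to 17.3 FPKM in WT and 2.16 to 12.4 FPKM in Apoe_KO, highest in WT 2 and Apoe_KO 4. Ngp, one of the 5, was at 0 in some libraries. Schwann cell markers ranged from 101 to 136 FPKM in WT and 54.8 to 116 FPKM in Apoe_KO, with a median log2 fold change of -0.55. Of these 4 markers 1 was called lower and 3 were lower at an unadjusted p under 0.05, against 3.92% and 16% of all tested genes. The part of these cell types in the levels of the 10 genes was not tested.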

How the data were processed

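RNA of whole aorta was sequenced in 5 WT and 4 Apoe_KO libraries, grouped by the labels. The labels' protocol describes depletion of ribosomal RNA while their molecule field names polyA RNA. Per the submitters' processing notes, GRCm38 was the build used, and limma is listed as a tool. The aligner, counter and strand setting were not given in the sources used here. A table without a stated unit was deposited, and the authors' values were read as FPKM. Times the exonic length in GENCODE mouse release 21 they gave whole reads, within 0.1 read, for 97.6% to 97.9% of values of up to 50 reads, where chance gives 20%. Of 33293 identifiers, 33240 were in that annotation. FPKM of low genes rest on few reads, and the log2(FPKM + 1) scale understates their change.

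Genes at 1 FPKM or more in 4 or more libraries were tested with limma 3.58.1 (R 4.3.3; trend and robust) with no term but genotype, and p-values were adjusted over 13383 genes by Benjamini and Hochberg. Il6 and Lif, under the filter, got an exact permutation test. The fit was tested on simulated data. Alternatives were the replicate block, leaving out libraries, pseudocount 0.1, other filters and scalings, library weights, and voom on recovered reads. The text names the 10 genes, up to 4 called genes per list (otherwise the 2 of smallest p), ligands and receptors under the filter, and the 5 genes most like Il6 or Socs3 in pattern. The members and lists were chosen with earlier results of these data known. Values of some pathway genes, which the counts include, are not reported here.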

Additional observations from a re-analysis of the deposited data

Results flagged for a closer look

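In 50 groups of values, 4 had a library far from the others by Dixon's criterion, which chance alone meets in about 5% of groups. Il6st was at 77.0 FPKM in WT 5 against 58.9 to 63.3 FPKM in the other WT libraries. Ctf1 was at 1.42 FPKM in WT 2 against 2.06 to 2.18 FPKM in the other WT libraries. Clcf1 was at 4.66 FPKM in WT 2 against 0.859 to 1.81 FPKM in the other WT libraries, and at 3.77 FPKM in Apoe_KO 4 against 1.03 to 1.46 FPKM in the other Apoe_KO libraries.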

How the results depend on the processing

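Most calls changed under some alternative, and the cause was not tested. Some alternatives brought fewer libraries or another number of genes, such as 30432 with no filter against 13383. Median centring, quantile normalization and library weights kept the same libraries and genes. Of the 10 IL-6 family genes, 2 were called higher, and 0 with the replicate block, 0 without WT 2 and Apoe_KO 4, 0 with no filter, 1 with a filter of 10 FPKM, and 0 to 2 with each library left out. Of the pathway genes, 7 were called higher, and 3 with the replicate block, 1 without WT 2 and Apoe_KO 4, 2 with no filter, and 1 to 7 with each library left out. The 2 called lower became 1 with the replicate block, 1 without WT 2 and Apoe_KO 4, 0 with a filter of 10 FPKM, and 1 to 2 with each library left out. Over all tested genes 459 were called higher, against 121 with the replicate block, 202 without WT 2 and Apoe_KO 4, 247 with no filter, 702 with library weights, and 210 to 580 with each library left out. The 524 called lower became 62 with the replicate block, 165 without WT 2 and Apoe_KO 4, 198 with no filter, 220 with a filter of 10 FPKM, 269 with median centring, 240 with quantile normalization, 1055 with library weights, and 179 to 678 with each library left out, where Apoe_KO 3 gave the lowest and Apoe_KO 2 the highest of both counts. The share of calls that were higher was 46.7%, and 70.1% with median centring, 66.9% with quantile normalization, 66.1% with the replicate block and 62.2% with a filter of 10 FPKM. Deviations of same-numbered libraries from their group means correlated at 0.259, -0.267, -0.129 and -0.218. Only the libraries numbered 1 correlated best with their own number. These values cannot decide whether the numbers pair the libraries, since other differences, such as B and plasma cell content, enter them as well. No Apoe_KO library has the number of WT 5. The replicate block therefore gave the same fold changes as leaving out WT 5, with more terms in the fit. Lifr, at -0.02 on the log2 scale, was at 0.0011 with the replicate block, 0.043 with median centring, 0.0037 with library weights and -0.080 to 0.049 with each library left out. Il11ra1, at -0.0071, was at 0.031 with the replicate block, 0.061 with median centring, 0.0039 with library weights and -0.039 to 0.031 with each library left out. Clcf1, at -0.03, was at 0.036 with median centring, 0.093 with quantile normalization and -0.30 to 0.23 with each library left out. None of these 3 genes was called under any alternative. The Il6 difference of 1.34 passed 0.05 by the exact permutation test on the FPKM scale, at 3.08, and without Apoe_KO 1, and ranged from 0.91 to 1.90 with each library left out. With voom on genes of at least 10 recovered reads, chosen after seeing the data, Il6 had 2.36 with an adjusted p of 0.599. Depth limits Il6, Osm and Il11, whose lowest libraries had 2, 0 and 0 reads.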
